A study of Sus scrofa with 6 samples.

Results

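PDGFRA, PDGFRB and EBF2 are genes of the fibro-adipogenic progenitors, the mesenchymal cells between muscle fibres. Each was represented by 1 record of that exact name, and these 3 records were taken from a table of 7661 gene records. Transcripts were counted by RNA sequencing in longissimus muscle of pigs (Sus scrofa), in 3 libraries labelled high and 3 labelled low in intramuscular fat. Per the labels' protocols the muscle was freshly taken and its total RNA was extracted with TRIzol. The labels name no treatment, allele or time, and for breed, sex, age and the number of animals the sources used here give nothing. The p-values therefore measure the spread between these libraries, part of which may be technical. Set against each other, the groups ask how these genes stand in fattier muscle.

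Fibro-adipogenic progenitors are resident cells of skeletal muscle that can become fibroblasts or fat cells and that help satellite cells during repair. They are usually recognised by the receptor PDGFRA. PDGFRA and its paralogue PDGFRB are receptor tyrosine kinases that dimerise when a platelet-derived growth factor (PDGF) binds and then recruit adaptors, lipid kinases and phosphatases. PDGFRB is best known from pericytes and vascular smooth muscle, and also occurs on mesenchymal cells. EBF2 is a transcription factor of the early B cell factor family that marks committed fat cell precursors and is known for its part in brown and beige fat.

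The library totals, as implied by the deposited values, lay between 25371989 and 34813172 reads. Muscle genes were abundant in all 6 libraries, as for ACTA1, the skeletal actin, at 22413 to 29737 CPM (reads scaled to library size, here with TMM normalisation factors). Every record of the table exceeded 10 deposited CPM in 3 or more libraries, which bears on the 3 genes. PDGFRB was above 10 deposited CPM in all 6 libraries, but PDGFRA and EBF2 each were so in 4, the 3 high libraries and 1 low library. A record near this limit could enter the table only if at least some libraries were high, so the presence of PDGFRA and EBF2 is tied in part to their level in the high group.

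The mean of PDGFRA was 2.70-fold higher in the high-fat group, that of EBF2 was 1.46-fold higher, and PDGFRB had the same mean in both groups. None of the 3 passed the main test, edgeR's quasi-likelihood test with p-values adjusted over all records (threshold 0.05), and PDGFRA passed in DESeq2 and in edgeR's exact test. The PDGFRA record (ENSSSCG00000008841) lies on chromosome 8, from 43008336 to 43046215, on the forward strand. It stood at 23.1, 29.99 and 12.4 CPM in high libraries 1 to 3 and at 7.76, 5.64 and 10.8 CPM in low libraries 1 to 3. The groups did not overlap, but high library 3 lay close to low library 3 and well below the other high libraries. The means were 21.8 ± 8.86 CPM and 8.08 ± 2.62 CPM (SD, n = 3 per group).

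The log2 fold change of PDGFRA was 1.43 (SE 0.36, 95% interval 0.60 to 2.26), with an edgeR quasi-likelihood adjusted p of 0.131 (unadjusted p = 0.00427). The call depends on the test: DESeq2 gave 1.44 with an adjusted p of 0.00281 and edgeR's exact test an adjusted p of 0.00199. In the authors' deposited table the difference is 1.43 with a false discovery rate of 0.00199, and PDGFRA is among the 134 genes of the authors' deposited list. These deposited values equal those of the exact test on the same counts, so they are not a separate result. The fewest reads behind a PDGFRA value were 190, which gives a counting error of at most 7.25%. The observed coefficients of variation were 40.6% (high) and 32.4% (low). With bulk RNA, more PDGFRA cells and more PDGFRA RNA per cell cannot be told apart.

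**Figure D1:**
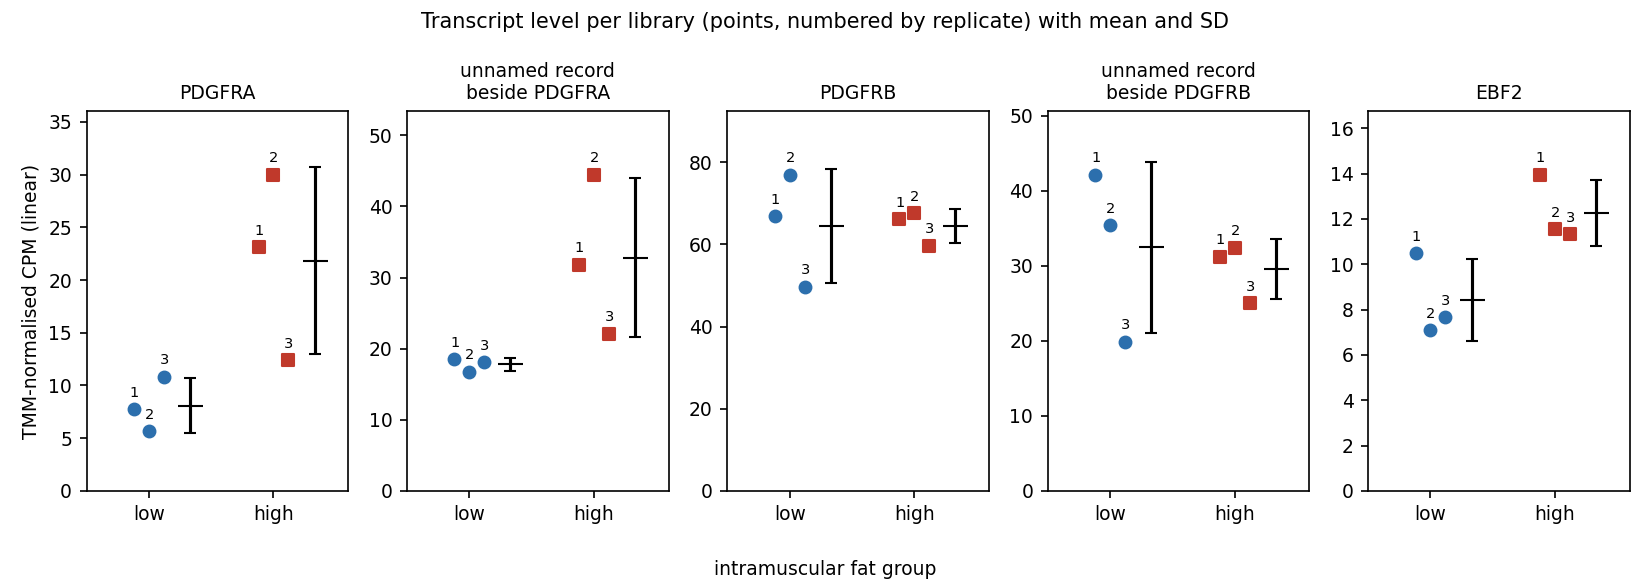
TMM-normalised CPM (vertical axis, linear, from 0, its own scale per panel) of PDGFRA, PDGFRB, EBF2 and the 2 unnamed records beside the receptors, for the low (circles) and high (squares) libraries. Points carry the replicate number and bars give the mean and SD of 3 libraries; PDGFRA, the unnamed record beside it and EBF2 have no overlap of the groups, whereas both records at PDGFRB overlap.

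The record called PDGFRB (ENSSSCG00000014442) lies on chromosome 2, from 157910126 to 158077825, on the reverse strand. Its levels were 66.1, 67.6 and 59.7 CPM in high libraries 1 to 3. In low libraries 1 to 3 they were 66.8, 76.9 and 49.7 CPM. The high libraries lay inside the range of the low libraries, so the groups overlapped throughout. The means were 64.5 ± 4.19 CPM (high) and 64.5 ± 13.8 CPM (low).

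The log2 fold change of PDGFRB was -0.00055 (SE 0.17, quasi-likelihood adjusted p = 0.9997). Its 95% interval ran from -0.41 to 0.41, so differences of up to that size in either direction remain possible. The direction has no meaning at this size, as it changed sign among normalisations. PDGFRB was the deepest of the 3 records, with 1406 to 2590 reads per library.

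EBF2 (ENSSSCG00000009655) lies on chromosome 14, from 10990371 to 11187293, on the reverse strand. It stood at 13.95, 11.6 and 11.3 CPM in high libraries 1 to 3 and at 10.5, 7.10 and 7.67 CPM in low libraries 1 to 3. The groups did not overlap, and low library 1 came nearest to the high libraries. The means were 12.3 ± 1.45 CPM and 8.42 ± 1.81 CPM (SD, n = 3 per group).

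The log2 fold change of EBF2 was 0.54 (SE 0.20, 95% interval 0.08 to 1.001), and it did not pass (quasi-likelihood adjusted p = 0.216, unadjusted p = 0.0262). DESeq2 and the exact test did not call it either, with adjusted p of 0.109 and 0.253. EBF2 spans 197 kb, among the longest genes of the table, and long genes were higher in the high libraries. The tenth of the genes with the longest spans, 766 records, had a median log2 fold change of 0.22. With that trend removed in each library EBF2 stood at 0.28 (limma adjusted p = 0.512) and PDGFRB, with 168 kb, at -0.24. PDGFRA, with 37.9 kb, kept 1.30 (limma adjusted p = 0.188).

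By the quasi-likelihood test 0 of the 3 records passed an adjusted p of 0.05, where 0.144% of the whole table did (0.131% higher and 0.0131% lower). An unadjusted p under 0.05 was reached by 2 of the 3, against 18.7% of the table. DESeq2 and the exact test each called 1 of the 3, which was PDGFRA, where they called 6.77% and 4.12% of the records tested (4.92% and 3.25% as higher). The groups did not overlap, with the high libraries above, in 2 of the 3 and in 13.5% of the table. These were PDGFRA and EBF2, as with the unadjusted p. Their presence in the table is tied in part to their level in the high group. The low libraries were all above in 0 of the 3 and in 13.3% of the table, and 26.8% had no overlap in either direction. PDGFRA ranked 26th of 7661 by the size of its rise and 248th by p.

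Ratios within a library, which do not depend on normalisation, set the 3 genes against each other. Reads of PDGFRA per read of PDGFRB were 0.350, 0.444 and 0.208 in high libraries 1 to 3 and 0.116, 0.0734 and 0.218 in low libraries 1 to 3. Low library 3 exceeded high library 3, so the groups overlapped. The geometric mean of the ratio was 2.59-fold higher in the high group (exact permutation test, two-sided, p = 0.2, adjusted p = 0.25 over 5 ratios). The smallest p that 3 against 3 libraries allow is 0.1. The test could therefore not pass 0.05, and whether the receptors differ is not settled by it.

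Reads of EBF2 per read of PDGFRB were 0.211, 0.171 and 0.190 in the high and 0.157, 0.0923 and 0.154 in the low libraries. The groups did not overlap, and the exact permutation p was 0.1 (adjusted p = 0.25), the smallest possible. Reads of PDGFRA per read of EBF2 ran from 1.10 to 2.60 in the high and from 0.740 to 1.41 in the low libraries, with overlap (exact permutation p = 0.2, adjusted p = 0.25). These ratios follow read numbers, not molecules, since the genes differ in length.

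Both receptors had a second record next to them that carries no symbol in the deposited table. At PDGFRA it is ENSSSCG00000028873, on chromosome 8 from 43067823 to 43081688, 21.6 kb past the end of the PDGFRA record and annotated on the opposite strand. The gene identifier that the table gives for it is that of PDGFRA in RefSeq. It stood at 31.8, 44.5 and 22.1 CPM in high libraries 1 to 3 and at 18.5, 16.8 and 18.1 CPM in low libraries 1 to 3. The order of the high libraries was that of PDGFRA, with library 2 highest and library 3 lowest, while the low libraries lay close together.

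This unnamed record had a log2 fold change of 0.88 (SE 0.24, quasi-likelihood adjusted p = 0.146; DESeq2 adjusted p = 0.0192). Reads of this record per read of PDGFRA were 1.38, 1.48 and 1.78 in high libraries 1 to 3 and 2.39, 2.97 and 1.67 in low libraries 1 to 3, an overlap (exact permutation p = 0.2, adjusted p = 0.25). The sources used here do not state whether strand was used in counting. Whether its reads belong to PDGFRA transcripts was not tested.

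At PDGFRB the second record is ENSSSCG00000022741, on chromosome 2 from 158113410 to 158121876, on the same strand and 35.6 kb from the record called PDGFRB. The Ensembl name table gives the symbol PDGFRB to this record and no symbol to the one the authors called PDGFRB, and the deposited table gives both the same gene identifier. It stood at 31.2, 32.4 and 24.99 CPM in high libraries 1 to 3 and at 42.1, 35.4 and 19.9 CPM in low libraries 1 to 3. As in the named record the groups overlapped and low library 3 was the lowest of the 6.

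Its log2 fold change was -0.14 (SE 0.27, 95% interval -0.76 to 0.48, quasi-likelihood adjusted p = 0.796). Reads of it per read of the named record ran from 0.419 to 0.479 in the high and from 0.400 to 0.631 in the low libraries (exact permutation p = 0.9). A further record on the opposite strand, ENSSSCG00000025399, lies inside the span of the named record, so reads there could be split. The level of PDGFRB is therefore uncertain, and neither of its records passed in the quasi-likelihood test, DESeq2 or the exact test.

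None of the records within 1 Mb of the 3 genes passed the quasi-likelihood test (0.144% of the table), as the 3 themselves did not. DESeq2 called the unnamed record at PDGFRA and, beside EBF2, DPYSL2, where it called 6.77% of the records tested. The unnamed record carries the gene identifier of PDGFRA and may not be a separate gene. The 5 records within 1 Mb of PDGFRA, the unnamed one included, lay between -0.41 and 0.88. The lowest of these was KDR, a receptor of vascular endothelial growth factor, at -0.41 (SE 0.20, quasi-likelihood adjusted p = 0.306). CHIC2 stood at -0.15 and LNX1 at 0.25. The 4 neighbours of EBF2 lay between 0.11 and 0.53, the highest being DPYSL2 at 0.53 (SE 0.12, quasi-likelihood adjusted p = 0.112; DESeq2 adjusted p = 0.0045), close to the value of EBF2 itself. The other neighbours of EBF2 were KCTD9 at 0.42, BNIP3L at 0.18 and PPP2R2A at 0.11. The 9 neighbours of PDGFRB lay between -0.38 and 0.54, with CSF1R, the macrophage receptor, at the top and TCOF1 at the bottom.

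Among the PDGF ligands, only PDGFC was matched to a record; PDGFA, PDGFB and PDGFD are not analysed here. PDGFC, a ligand that binds PDGFRA after its CUB domain is cut off, stood at 13.6, 10.8 and 27.2 CPM in high libraries 1 to 3 and at 10.3, 12.7 and 7.99 CPM in low libraries 1 to 3. High library 3 alone was far above the rest, and it is the high library with the least PDGFRA. The log2 fold change of PDGFC was 0.73 (SE 0.35, quasi-likelihood adjusted p = 0.307). NRP1, a co-receptor that can bind PDGFs, was higher in all 3 high libraries without overlap, at 0.32 (SE 0.15, quasi-likelihood adjusted p = 0.2996).

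Downstream of the receptors, 27 records of adaptors and effectors were measured. By the quasi-likelihood test 0 passed, 18 were above 0 (45.2% of the table) and DESeq2 called 0. An unadjusted p under 0.05 was reached by 5 of the 27, all higher, a share close to the 18.7% of the whole table (10.3% as higher). Among these were SOS2, an exchange factor of RAS, at 0.56 (SE 0.17), the kinase JAK1 at 0.47 (SE 0.15), PTPN11, the phosphatase SHP2 that binds activated PDGF receptors, at 0.41 (SE 0.14), and the PI3-kinase subunit PIK3R3 at 0.39 (SE 0.13). The quasi-likelihood adjusted p of these genes lay between 0.170 and 0.197. Each of these genes serves many receptors besides those of PDGF.

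Of 7 inhibitor records 5 were above 0. SPRY1, a feedback inhibitor of receptor tyrosine kinases, had 0.33 (SE 0.13, quasi-likelihood adjusted p = 0.252), with no overlap of the groups. CBLB, a ubiquitin ligase that sends receptors to degradation, had 0.38 (SE 0.37), RASA1 0.15 (SE 0.14) and the phosphatase PTPN1 -0.45 (SE 0.28).

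Over the whole PDGF list, 37 of 57 symbols were matched to 40 records. Their median log2 fold change was 0.21, where the median of all 7661 records was -0.04. Above 0 were 27 of the 40, against 45.2% of the table. An unadjusted p under 0.05 was reached by 9 higher and 0 lower records, against 10.3% and 8.41% of the table. DESeq2 called 3 of the 40, both records at PDGFRA among them, all higher, where it called 4.92% of the table as higher. Without the named PDGFRA and PDGFRB records, 8 of 38 had an unadjusted p under 0.05, all higher. DESeq2 called 2 of these 38, the unnamed record at PDGFRA among them, and the median stayed at 0.21. These medians and shares were not corrected for span, although long genes were higher in the high libraries.

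**Figure D2:**
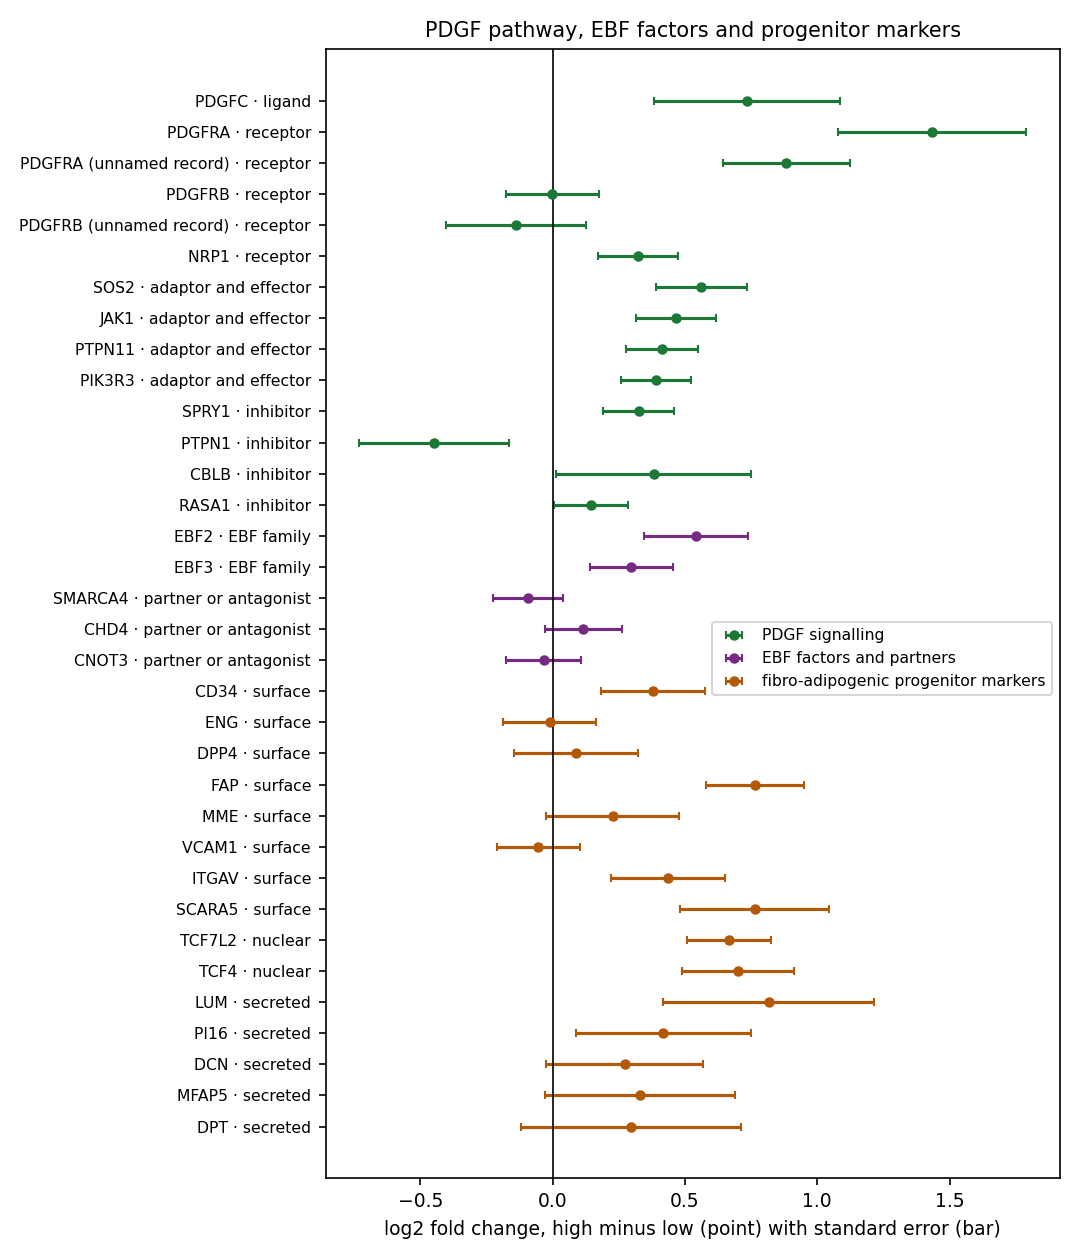
Log2 fold change, high minus low (horizontal axis), with its standard error for PDGF pathway genes, EBF factors with their partners, and progenitor markers; the vertical axis names each record with its role. PDGFRA stands farthest to the right at 1.43, both records at PDGFRB lie at or just below 0, and PTPN1 is farthest to the left at -0.45.

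Of the EBF family, EBF2 and EBF3 were measured, and EBF1 and EBF4 are not analysed here. EBF3 stood at 26.8, 29.4 and 26.1 CPM in the high and at 22.2, 26.3 and 18.5 CPM in the low libraries, where low library 2 passed high library 3. Its log2 fold change was 0.30 (SE 0.16, quasi-likelihood adjusted p = 0.339). Partners of EBF factors on chromatin lay near 0: CHD4, a remodeller of the NuRD complex, at 0.12 (SE 0.15), the BAF complex ATPase SMARCA4 at -0.09 (SE 0.13) and CNOT3, a subunit of the CCR4-NOT complex, at -0.03 (SE 0.14). The partners and antagonists ZNF423, ZNF521, PRDM16, TLE3, DPF3 and RUNX1T1 were not matched to a record.

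Markers of fibro-adipogenic progenitors lay mostly above 0. The list had 37 symbols, of which 17 were matched to 18 records, among them both records at PDGFRA. Without the named PDGFRA record 15 of 17 were above 0 (45.2% of the table), with a median of 0.38 (-0.04 over the table). Neither value was corrected for span. An unadjusted p under 0.05 was reached by 5, all higher (10.3% of the table). The quasi-likelihood test called 0 of them and DESeq2 called 4, all higher (4.92% of the table). The unnamed record at PDGFRA is 1 of these 5 and 1 of these 4. So is TCF7L2, which entered the table only through its high libraries. TCF4, also counted in both, is a different gene that shares a name with TCF7L2, so its place in the list is uncertain. The unmatched symbols THY1, NT5E, CD55, CD248 and DLK1 of the surface markers, and OSR1, GLI1, TWIST1, TWIST2, HIC1, PRRX1, TCF21, MEOX1 and MEOX2 of the nuclear ones, are not shown to be low.

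FAP, the fibroblast activation protein, stood at 35.2, 24.7 and 36.3 CPM in high libraries 1 to 3 and at 18.7, 16.5 and 21.3 CPM in low libraries 1 to 3. The groups did not overlap, but high library 2, the highest in PDGFRA, was the lowest high library in FAP. FAP had a log2 fold change of 0.77 (SE 0.19, quasi-likelihood adjusted p = 0.122; DESeq2 adjusted p = 0.0094). SCARA5, a ferritin receptor of adventitial fibroblasts, had 0.76 (SE 0.28, adjusted p = 0.221) with overlapping groups. ITGAV, the integrin chain that activates TGF-beta, had 0.44 (SE 0.21) and CD34, a sialomucin of progenitors and endothelium, 0.38 (SE 0.20).

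The remaining surface markers were near 0. The peptidase DPP4 had 0.09 (SE 0.23), the neprilysin gene MME 0.23 (SE 0.25), the adhesion molecule VCAM1 -0.05 (SE 0.16) and the co-receptor endoglin (ENG) -0.01 (SE 0.18). DPP4 marks an early, uncommitted progenitor in adipose tissue, and FAP is its neighbour and paralogue.

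Both matched nuclear markers were above all low libraries in every high library. Only for TCF4 can this be set against the 13.5% of the records of the table. TCF7L2, a Wnt effector of muscle connective tissue fibroblasts, stood at 12.7, 16.0 and 13.1 CPM in the high and 9.15, 9.21 and 7.95 CPM in the low libraries. TCF7L2 entered the table only through its high libraries, so its higher direction and lack of overlap follow from the limit of the table. For TCF7L2 the log2 fold change was 0.67 (SE 0.16, quasi-likelihood adjusted p = 0.118; DESeq2 adjusted p = 0.0066). TCF4 encodes the E-box factor E2-2 and is a different gene, although TCF7L2 is also known by that name. Its place among the progenitor markers is therefore uncertain. TCF4 had 0.70 (SE 0.21, quasi-likelihood adjusted p = 0.169, DESeq2 adjusted p = 0.0487). TCF7L2 spans 202 kb, as long as EBF2, and its value was not corrected for span.

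The 6 secreted markers were all above 0 and none had an unadjusted p under 0.05. The proteoglycans LUM and DCN had 0.82 (SE 0.40) and 0.27 (SE 0.30). DCN stood at 659 CPM in low library 3, above each high library (478 to 547 CPM), and at 355 and 286 CPM in the other low libraries. Low library 3 was also the low library with the most PDGFRA. PI16, MFAP5 and DPT had 0.42, 0.33 and 0.30, with standard errors of 0.33 to 0.42.

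Markers of the other cell types in muscle moved unequally beside PDGFRA. Of 10 adipocyte records, 8 were above 0 (45.2% of the table) and 2 passed the quasi-likelihood test (0.144% of the table). These were PLIN1, the coat protein of fat cell lipid droplets (2.75, SE 0.32, adjusted p = 0.0404), and 1 record of THRSP (2.94, SE 0.35, adjusted p = 0.0437). The other THRSP record had 1.05 (SE 0.21, quasi-likelihood adjusted p = 0.1025) and did not pass. PLIN1, the called THRSP record and CIDEA exceeded 10 deposited CPM in no low library. They entered the table only through the high libraries, so their higher direction follows from that limit. With limma-voom, with the replicate block and without high library 2, low library 2 or low library 3, 0 markers of these cell types passed, and without high library 1 or high library 3 there was 1. AQP7, a glycerol channel, was lower in all high libraries at -0.66 (SE 0.24, adjusted p = 0.2203) and did not pass. The summed adipocyte level ran from 376 to 712 CPM in the high and from 289 to 384 CPM in the low libraries. Pericyte and smooth muscle markers had a median of 0.01 over 12 records, 6 of them above 0, and summed to 699 to 753 CPM in the high and 497 to 657 CPM in the low libraries. Within that list PDGFRB lay near 0 together with KCNJ8, MCAM and TAGLN, whereas MYH11 (0.98, SE 0.22), ABCC9 (0.83, SE 0.24) and RGS5 (0.74, SE 0.26) lay higher, none past the quasi-likelihood test (adjusted p of 0.1135, 0.158 and 0.209). Of these 12 records DESeq2 called MYH11 (adjusted p = 0.0037) and ABCC9 (adjusted p = 0.0314), where it called 4.92% of the table as higher. It also called FAP, TCF7L2 and TCF4 among the progenitor markers.

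Endothelial markers had a median of -0.11 over 8 records, 3 of them above 0, and sums of 389 to 480 CPM in the high against 342 to 479 CPM in the low libraries. Macrophage markers had a median of -0.15 over 7 records, 2 of them above 0, and sums of 154 to 230 against 92.7 to 264 CPM. Satellite cell markers had a median of 0.16 over 5 records, 4 of them above 0, and sums of 624 to 729 against 349 to 473 CPM, mostly from 1 record (ENSSSCG00000026533; 0.87, SE 0.17, quasi-likelihood adjusted p = 0.104; DESeq2 adjusted p = 4.3e-04). The deposited table calls that record MYF5, whereas the Ensembl name table, the description beside it and its gene identifier in RefSeq are those of MYF6, a factor of differentiated fibres, so the satellite cell sum is uncertain. Of the Schwann cell markers MBP (-0.49) and S100B (0.28) were matched, with sums of 22.3 to 34.3 against 27.3 to 31.1 CPM. No matched marker was at 0, as the table lists none that low, and PAX7, MYOD1, CDH5, CSPG4 and SOX10 were among those not matched. The part of these cell types in the level of PDGFRA or EBF2 was not tested.

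**Figure D3:**
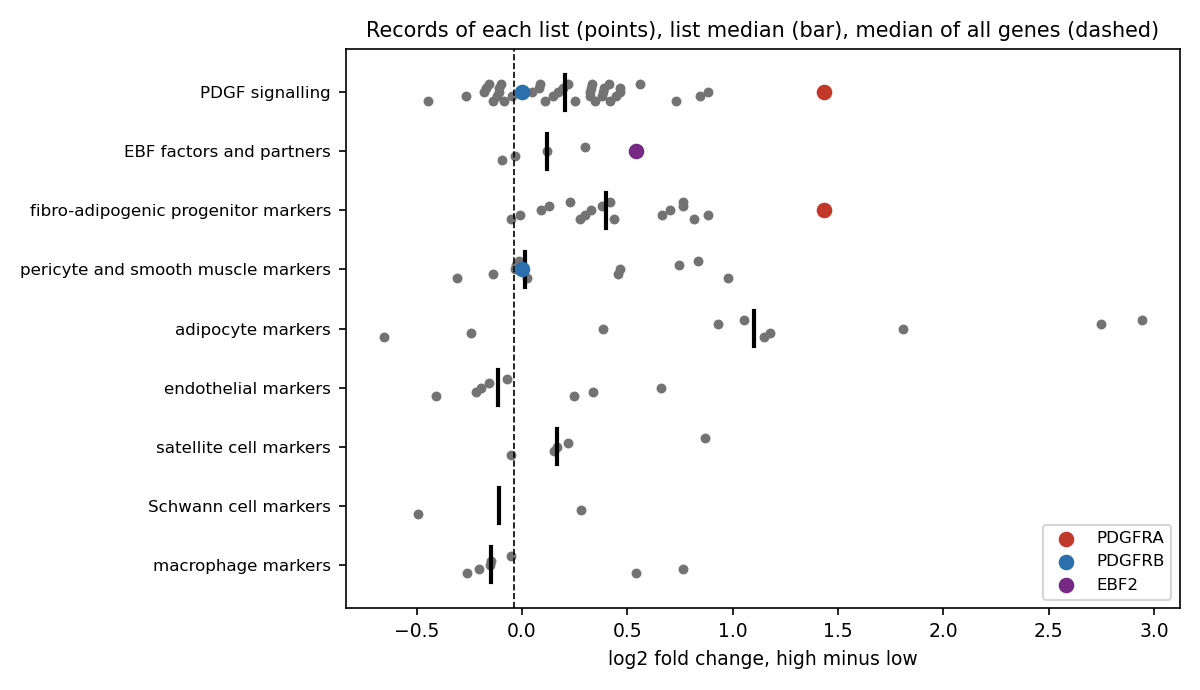
Log2 fold change, high minus low (horizontal axis), of every matched record (points) in each of 9 gene lists (vertical axis), with the list median as a bar and the median of all genes as a dashed line. PDGFRA lies to the right of the other progenitor markers, PDGFRB sits at the centre of the pericyte list (median 0.01), and the adipocyte list has the median farthest from that of all genes (1.10).

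Across the 6 libraries PDGFRA varied more than 98.7% of the genes, with a root mean square deviation from its own mean of 0.83 on the log2 scale. EBF2 had 0.34 and PDGFRB 0.19. Likeness of pattern was measured as the root mean square difference between centred log2 CPM values over these 6 libraries, as a description without a test, in which all values share the same libraries. The record most like PDGFRA was 1 of COL1A1, a chain of type I collagen, at 0.17 (ENSSSCG00000017579). It was followed by RND3, an atypical small GTPase that lowers actomyosin contraction, at 0.18, the zinc finger gene ZNF385D at 0.28, PI15, a secreted peptidase inhibitor, at 0.29, and 1 record of COL1A2 at 0.31 (ENSSSCG00000022000).

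That COL1A1 record stood at 60.7, 75.9 and 40.2 CPM in high libraries 1 to 3 and at 25.04, 14.8 and 36.1 CPM in low libraries 1 to 3. As with PDGFRA, for likeness to which it was picked, high library 2 was the highest, low library 2 the lowest, and high library 3 lay near low library 3. The log2 fold change of this record was 1.22 (SE 0.35, quasi-likelihood adjusted p = 0.155). COL1A1 and COL1A2 each have a second record, and such records can share reads. RND3 had 1.24 (SE 0.38) and PI15 1.62 (SE 0.37), neither past the quasi-likelihood test (adjusted p of 0.173 and 0.113). PI15 exceeded 10 deposited CPM in no low library, so its higher direction follows from the limit of the table.

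Among the 5 records most like EBF2 were EHBP1 (0.08), MXRA8 (0.10) and GOLIM4 (0.10). EHBP1 links endocytosis to actin, MXRA8 is an adhesion protein of mesenchymal cells and GOLIM4 a Golgi membrane protein. Their log2 fold changes were 0.51, 0.55 and 0.65, with no overlap of the groups in any of these 3 (13.5% of the table as higher). This follows from their choice by likeness to EBF2, which itself had 0.54 and no overlap. For PDGFRB the nearest were PLEKHM1, TRAPPC8, FOXJ3, LEMD3 and MCM3AP, at 0.04 to 0.06. By the same measure PDGFRA and EBF2 differed by 0.62, PDGFRA and PDGFRB by 0.88, and PDGFRB and EBF2 by 0.38.

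**Figure D4:**
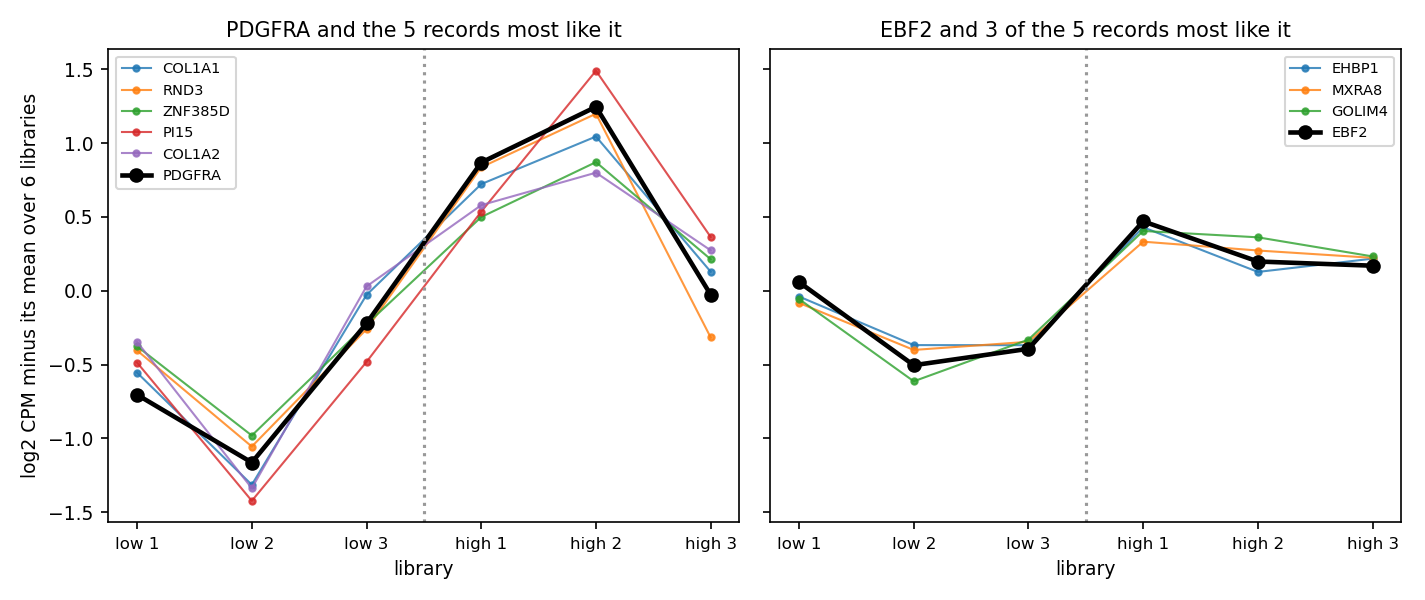
Log2 CPM minus its mean over the 6 libraries (vertical axis) in each library (horizontal axis), for PDGFRA (left, black) and EBF2 (right, black) with the 5 records most like PDGFRA and 3 of the 5 most like EBF2 (coloured); the dotted line parts low from high libraries. PDGFRA and its nearest records dip in low library 2 and peak in high library 2, whereas EBF2 is highest in high library 1 and varies less.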

How the data were processed

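RNA sequencing of 3 high and 3 low muscle libraries was used. The submitters' processing notes name TopHat2 2.0.4, BWA 0.6.2, Trimmomatic 0.22 and FastQC 0.10.1; the counter, strand setting, build and annotation were not given in the sources used here. The authors deposited raw read counts per record, CPM that equal the count over 1 library total, and log2 fold changes (low over high, turned around here) with p-values and false discovery rates, per the file headers. Coordinates and spans are those of the deposited table (other deposited columns were not used), and spans are end minus start plus 1.

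Library totals came from the deposited CPM. All 7661 records were fitted with edgeR 4.0.16 (R 4.3.3): TMM, filterByExpr (which removed none), quasi-likelihood F-test (legacy = FALSE), Benjamini-Hochberg adjustment, threshold 0.05. The size of the log2 fold change divided by the root of F gave its standard error. DESeq2 1.42.0 and limma 3.58.1 served as alternatives. The script was tested on simulated counts.

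Members and the 9 lists were chosen with earlier results of these data known. Of 172 list symbols, 76 were not matched by deposited name, Ensembl name table or RefSeq identifier. Named were the 3 genes, all ligands, receptors, EBF factors, partners, and surface and nuclear markers, up to 5 records by p of other roles, the 5 records most like each gene and records within 1 Mb. Likeness used a prior count of 2.

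No sequence is shown, and some genes named by this rule are not reported here.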

Additional observations from a re-analysis of the deposited data

How the results depend on the processing

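PDGFRA kept its direction in every alternative run, and passed in DESeq2 (1.44) and the exact test (1.43); with each library left out it lay between 1.13 and 1.72 (adjusted p between 0.134 and 0.347). EBF2 kept its direction and did not pass, between 0.43 and 0.75 with each library left out and 0.28 with the span trend removed. PDGFRB, near 0, changed sign with DESeq2 size factors (0.0099), DESeq2 (0.0098), voom (0.0215) and the replicate block (0.0205), and lay between -0.15 and 0.15 with each library left out. Over the table, 11 calls became 518 in DESeq2, 316 in the exact test, 82 at a threshold of 0.1, and 2 with the replicate block. Omitting 1 library gave 1 (low 2) to 30 (low 1) calls, with 6, 2 and 7 for high 1, 2 and 3. The PDGF list went from 0 to 3 calls in DESeq2, 3 in the exact test and 1 at 0.1, and the progenitor list from 0 to 5 in DESeq2 and 3 in the exact test. Markers of the other cell types went from 2 to 9 in DESeq2, 9 in the exact test, 4 at 0.1, 0 in voom and 0 with the block, and omitting 1 library gave 0 to 3. The cause was not tested.

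Deviations of same-numbered libraries correlated at 0.118, 0.0312 and -0.0815, and those of differently numbered libraries between -0.185 and 0.144. With 3 libraries per group these values do not settle whether the replicate numbers pair the libraries. With the replicate block PDGFRA had 1.40 and EBF2 0.56, and neither passed. Ranked by Pearson correlation, 2 of the 5 records most like PDGFRA, 3 of those most like PDGFRB and 1 of those most like EBF2 remained. The older quasi-likelihood method was chosen after seeing the data and gave 11 calls over the table. With 3 libraries per group, the spread between libraries limits all values.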
